A study of Mus musculus with 15 samples.

Results

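The genes described here are 41 members of the cell's response to low oxygen and of glycolysis, listed by symbol and found in the count table of a study of GL261, a mouse glioma cell line. Of the 34259 genes in that table, 23 form the hypoxia set and 18 the glycolysis set. RNA was sequenced in read pairs from 15 libraries, 3 in each of 5 groups, all labelled wild type and Day 6. Non-SP denotes untreated cells that do not belong to the side population, the fraction that pumps out the dye Hoechst; the series text also calls them Luci+. The other 4 groups held Hoechst-CD133+ cells that were given a cytokine cocktail. The PBS group received buffer, while the cells of L-gel@GSNP, D-gel@NP and D-gel@GSNP were put into lyophilised chiral hydrogels on ice for 20 min. D and L tell the hydrogels apart, and GSNP and NP are code names that the labels do not explain. Every group had fresh medium on days 2 and 4, in DMEM with serum. All cells stem from 1 line, and nothing in the labels says that replicates came from separate cultures, so p-values measure the spread between these libraries, which may be technical.

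Cells sense oxygen through the hypoxia-inducible factors. Prolyl hydroxylases (Egln1 and Egln3 encode 2 of them) mark the HIF alpha subunit for destruction when oxygen is present, so that Hif1a is controlled in large part at the protein and not at the RNA level. When the subunit is spared it pairs with ARNT, binds promoters and enhancers at the letters RCGTG (R is A or G), and raises genes for angiogenesis, for turnover of mitochondria and for glucose use. Glycolysis turns glucose into pyruvate and lactate, and many of its enzymes are HIF targets and are also set by other factors. Glioma cells, like many tumour cells, are known for high glycolysis.

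Total counts per library (in M, 1e6 counts) were lowest in D-gel@NP 1, at 16.6 M, and highest in L-gel@GSNP 3, at 98.1 M, and no pair of libraries held the same counts. Levels are given as CPM, counts relative to library size (scaled with TMM factors), which allow a gene to be compared between libraries. FPKM, which also divides by gene length, is used to compare genes with each other. Groups were compared by edgeR's quasi-likelihood test over 17497 genes, and calls were made below 0.05 after Benjamini-Hochberg adjustment. The D-gel@GSNP libraries resembled the untreated non-SP libraries across the genome (73 of 17497 genes called), so wherever that group is used, a treatment effect cannot be told apart from mislabelling or from material in common. Prom1, which encodes CD133, was near 0 in every group (mean of at most 0.157 CPM). Within L-gel@GSNP the deepest library, 3, was the highest of its group for 31 of the 37 members tested and library 2 the lowest for 31; over all genes these shares were 34.8% and 29%.

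Of the 41 members 37 had enough counts to be tested, 19 of the hypoxia set and all 18 of the glycolysis set. Over the 5 groups 19 of 19 hypoxia members and 15 of 18 glycolysis members differed, where 74.1% of all genes did; Slc16a3, Gapdh and Eno2 were the exceptions. L-gel@GSNP was the group that stood apart: its 3 libraries lay above the 12 others for 12 hypoxia members and 7 glycolysis members, where 7.80% of all genes did so. These were Vegfa, Bnip3, Bnip3l, Pdk1, Egln3, Ankrd37, Ndrg1, P4ha1, P4ha2, Kdm3a, Higd1a and Mxi1 in the one set and Slc2a1, Gpi1, Pfkl, Pfkp, Aldoa, Tpi1 and Pgk1 in the other. D-gel@NP showed another pattern, with its 3 libraries below the 12 others for Hk1, Gpi1, Pfkm, Pgam1, Pkm, Ldha, Egln1 and Pfkfb3 (1.33% of all genes). In bulk RNA, more cells that express a gene and more RNA per cell cannot be told apart.

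**Figure D1:**
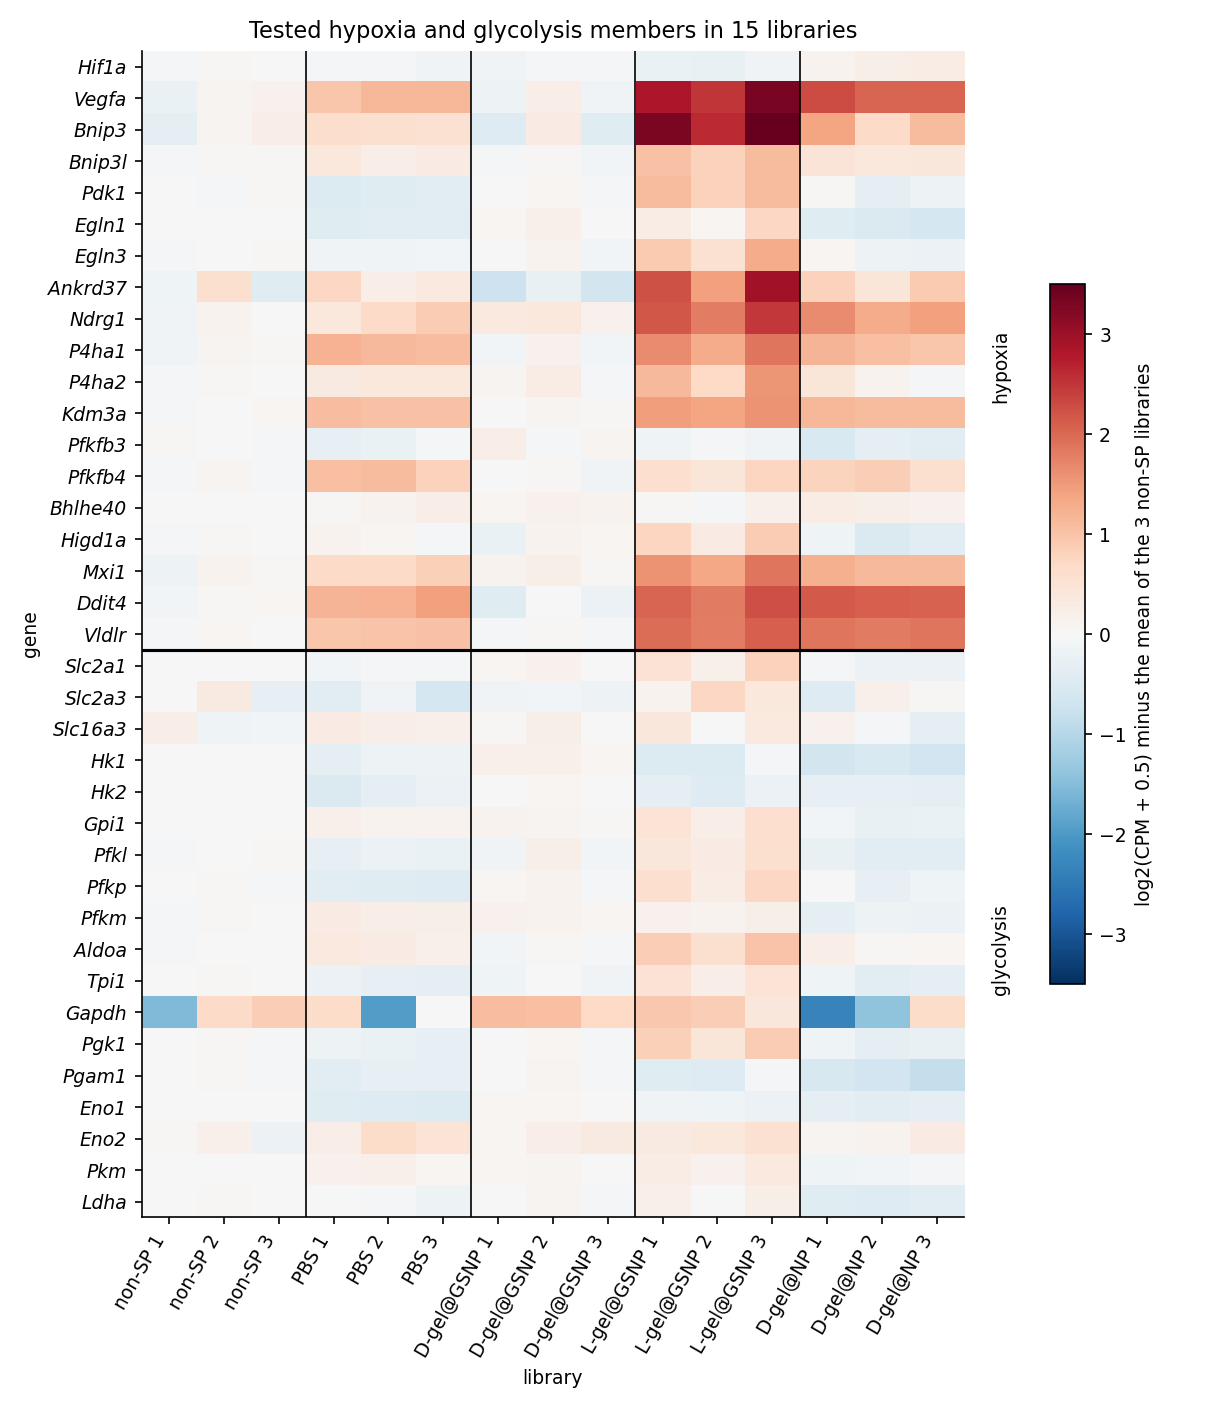
Colour gives log2(CPM + 0.5) of each tested member (rows; hypoxia above the black line, glycolysis below) in each of the 15 libraries (columns), minus the mean of the 3 non-SP libraries. The D-gel@GSNP columns are pale like non-SP, the L-gel@GSNP columns are red for most members of both sets, and PBS and D-gel@NP are mostly red in the hypoxia set and mostly blue in the glycolysis set.

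The 2 sets did not move together. The median hypoxia member in a library, relative to the non-SP mean, lay at 0.376 to 0.382 (log2) in PBS, 0.435 to 0.769 in D-gel@NP and 0.807 to 1.54 in L-gel@GSNP. The median glycolysis member lay below non-SP in PBS (-0.17 to -0.138) and in D-gel@NP (-0.287 to -0.212) and above it in L-gel@GSNP (0.209 to 0.375). Both medians of D-gel@GSNP straddled 0, at -0.0764 to 0.12 and -0.0192 to 0.0952. The median of all genes tested lay within 0.031 of non-SP in every library, which the TMM scaling largely sets in advance. As a share of all counts the 18 glycolysis genes took 0.868% ± 0.021 in non-SP, 0.814% ± 0.0264 in PBS, 0.87% ± 0.0351 with D-gel@GSNP, 1.08% ± 0.0938 in L-gel@GSNP and 0.733% ± 0.0162 in D-gel@NP (SD, n = 3). The lowest L-gel@GSNP library (0.9748%) was above the highest of the 12 others (0.91%).

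**Figure D2:**
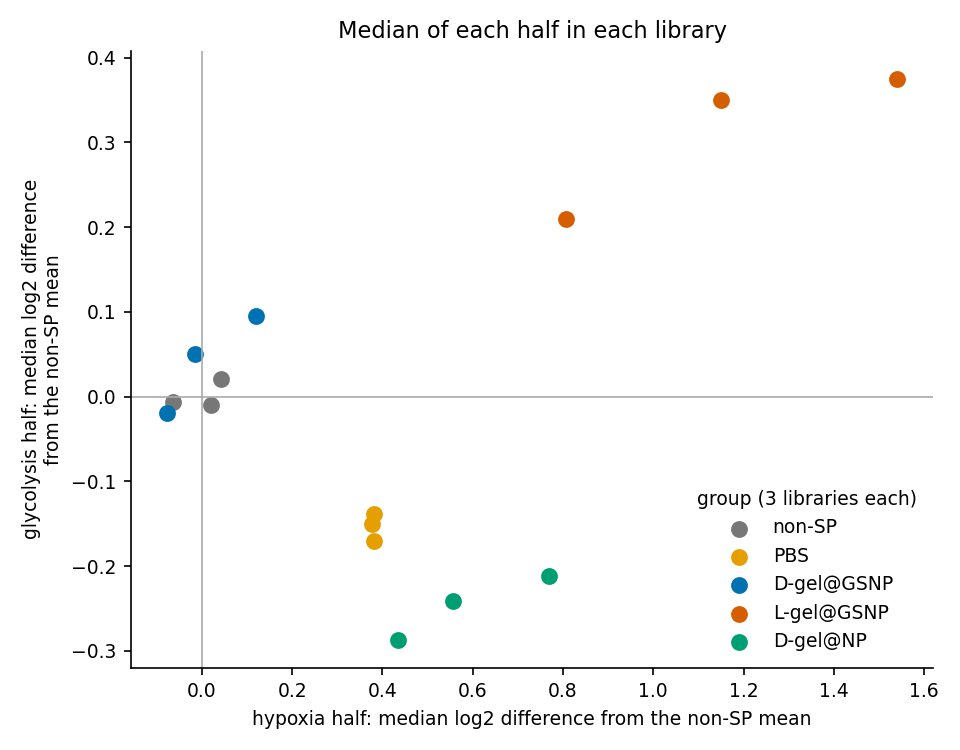
Each point is 1 library; the x axis gives the median log2 difference of the 19 tested hypoxia members from the non-SP mean and the y axis that of the 18 glycolysis members. PBS (0.376 to 0.382) and D-gel@NP (0.435 to 0.769) lie to the right of non-SP and below it, and L-gel@GSNP (0.807 to 1.54) to the right and above.

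Promoter sequence was not used here to choose the members, but many of them are known HIF targets. In the 250 bases before a RefSeq start (mouse GRCm38.p6; windows were held for 36 members), the letters ACGTG or GCGTG, on either strand, occurred in 17 of 19 hypoxia genes (89.5%) and 14 of 17 glycolysis genes (82.4%), against 41.5% of all genes. By window the shares were 70.4%, 74.1% and 38.6%. The members' windows were also richer in G and C (median 61% against 52.4%), and the share with these letters rose with GC content over all windows, from 12.3% under 40% GC to 66.9% over 70%. In the band from 60% to 70% GC, which holds the members' median, the share over all windows was 62.8%. The palindrome CACGTG, the E-box that MYC and its relatives bind, contains ACGTG on both strands and was found in 3 of 19 hypoxia genes (15.8%), 2 of 17 glycolysis genes (11.8%) and 6.9% of all genes. The windows below belong to 4 members whose L-gel@GSNP libraries were above all others (Bnip3, Ankrd37, Pdk1 and Pgk1), to Ldha, which has 2 E-boxes, and to Tpi1, which was also highest in L-gel@GSNP and holds neither motif in this window. They are written 5′ to 3′ on the gene's strand, end at the base before the start, and carry ACGTG or GCGTG, or their reverse complements, in capitals.
Bnip3, chr7:138909507-138909756, minus strand: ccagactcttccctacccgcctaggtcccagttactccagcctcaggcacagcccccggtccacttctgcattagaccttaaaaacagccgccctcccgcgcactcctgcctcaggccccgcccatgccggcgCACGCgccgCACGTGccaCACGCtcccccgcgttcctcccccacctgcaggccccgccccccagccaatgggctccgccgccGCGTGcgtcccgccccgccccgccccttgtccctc
Ankrd37, chr8:45999851-46000100, minus strand: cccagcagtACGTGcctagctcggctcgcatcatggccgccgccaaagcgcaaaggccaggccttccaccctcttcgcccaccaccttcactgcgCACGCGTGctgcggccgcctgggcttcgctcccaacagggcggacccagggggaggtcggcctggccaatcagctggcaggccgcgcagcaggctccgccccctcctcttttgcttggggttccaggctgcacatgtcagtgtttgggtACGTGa
Pdk1, chr2:71872974-71873223, plus strand, first of 2 windows: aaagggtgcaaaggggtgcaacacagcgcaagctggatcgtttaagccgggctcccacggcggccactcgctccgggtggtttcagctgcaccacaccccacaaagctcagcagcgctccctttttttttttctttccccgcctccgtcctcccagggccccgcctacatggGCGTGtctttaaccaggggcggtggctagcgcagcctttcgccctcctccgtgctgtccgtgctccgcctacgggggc
Pgk1, chrX:106186850-106187099, plus strand: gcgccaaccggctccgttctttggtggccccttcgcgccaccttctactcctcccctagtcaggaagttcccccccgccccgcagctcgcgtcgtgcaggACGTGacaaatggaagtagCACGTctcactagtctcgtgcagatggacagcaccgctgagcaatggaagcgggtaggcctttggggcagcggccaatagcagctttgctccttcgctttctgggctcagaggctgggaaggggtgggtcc
Ldha, chr7:46845554-46845803, plus strand, first of 2 windows: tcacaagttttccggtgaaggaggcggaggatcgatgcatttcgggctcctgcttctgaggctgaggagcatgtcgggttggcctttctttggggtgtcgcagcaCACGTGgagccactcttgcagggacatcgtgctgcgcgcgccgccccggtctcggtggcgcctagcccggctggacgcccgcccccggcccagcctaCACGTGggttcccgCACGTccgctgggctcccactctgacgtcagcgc
Tpi1, chr6:124814159-124814408, minus strand: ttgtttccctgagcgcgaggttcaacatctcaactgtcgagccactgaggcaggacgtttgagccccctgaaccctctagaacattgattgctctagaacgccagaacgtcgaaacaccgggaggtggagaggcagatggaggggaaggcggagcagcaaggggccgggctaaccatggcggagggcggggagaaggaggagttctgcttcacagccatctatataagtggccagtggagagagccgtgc
Bnip3 held 5 such matches, 4 of them between 117 and 99 bases before the start. Those at 108 and 107 are the strands of 1 CACGTG. Ankrd37 held 4 matches, and those at 155 and 152 bases before the start overlap. Pgk1 held 2, at 150 and 131 bases before the start, and Pdk1 held 1. A match of letters is a description of the sequence and not a binding site, and binding was not measured here.

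Hif1a, the subunit that oxygen destroys, varied little between groups and was lowest in L-gel@GSNP, where most of the genes listed here as its targets were highest. It stood at 362, 389 and 383 CPM in the 3 non-SP libraries, 366, 359.5 and 349 in PBS, 347, 362 and 368 with D-gel@GSNP, 323, 316 and 347 in L-gel@GSNP and 415, 437 and 450.3 in D-gel@NP. All L-gel@GSNP libraries were below, and all D-gel@NP libraries above, every other library. L-gel@GSNP was 1.32-fold lower than D-gel@NP (log2 difference -0.40, SE 0.0481, edgeR adjusted p = 3.58e-06) and D-gel@NP 1.21-fold higher than PBS (edgeR adjusted p = 0.000129). The smaller fall of L-gel@GSNP below PBS (log2 -0.12, edgeR adjusted p = 0.0395) was lost without PBS 1, PBS 2, L-gel@GSNP 1 or L-gel@GSNP 2 (adjusted p 0.0933 to 0.217), and under 9 other settings, among them upper-quartile factors (log2 -0.0572, adjusted p = 0.354) and a fit of only the 6 libraries compared (0.0979).

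The prolyl hydroxylase genes, which are themselves HIF targets, were both highest on average in L-gel@GSNP. Egln3 stood at 227, 171 and 295 CPM there and between 103.6 and 130.4 CPM in the 12 other libraries, 2.11-fold higher than PBS (edgeR adjusted p = 1.33e-07) and 2.09-fold higher than D-gel@NP (edgeR adjusted p = 1.78e-06). Egln1 stood at 105, 90.9 and 144 CPM in L-gel@GSNP, which overlapped D-gel@GSNP (92.1, 98.5 and 86.8). It was lowest in D-gel@NP, at 64.6, 61.6 and 56.1 CPM, below all other libraries.

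Vegfa, the main angiogenic growth factor induced by HIF, was higher than in non-SP in 3 of the groups, to different degrees. It stood at 26.5, 33.0 and 34.4 CPM in non-SP, 61.7, 70.7 and 70.4 in PBS, 27.4, 36.5 and 28.7 with D-gel@GSNP, 226, 178 and 313 in L-gel@GSNP and 153, 129 and 128 in D-gel@NP. Non-SP and D-gel@GSNP overlapped, and PBS, D-gel@NP and L-gel@GSNP were each separate from the group below them. PBS was 2.16-fold higher than non-SP (edgeR adjusted p = 1.24e-06), D-gel@NP 2.02-fold higher than PBS (edgeR adjusted p = 1.33e-05) and L-gel@GSNP 1.76-fold higher than D-gel@NP (log2 0.81, 95% interval 0.523 to 1.1, edgeR adjusted p = 0.000234). Without L-gel@GSNP 3, which had the highest value, the last difference was 0.57. D-gel@GSNP was 7.74-fold lower than L-gel@GSNP (edgeR adjusted p = 1.74e-13).

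Among genes that act on mitochondria, Bnip3 had the widest range of group means. Its product sits on the outer membrane and marks mitochondria for autophagy. It stood at 9.27, 12.8 and 13.97 CPM in non-SP, 18.4, 17.8 and 17.4 in PBS, 8.47, 14.5 and 8.75 with D-gel@GSNP, 119.6, 74.6 and 154 in L-gel@GSNP and 31.7, 19.1 and 26.3 in D-gel@NP. Only the L-gel@GSNP libraries were far above the rest, and D-gel@NP lay above PBS without being called (edgeR adjusted p = 0.0952; 0.0304 without D-gel@NP 2). L-gel@GSNP was 6.52-fold higher than PBS (log2 2.71, SE 0.218, edgeR adjusted p = 1.42e-09), 4.61-fold higher than D-gel@NP (edgeR adjusted p = 3.74e-07), and D-gel@GSNP was 10.9-fold lower than L-gel@GSNP (edgeR adjusted p = 1.07e-11). PBS was 1.49-fold higher than non-SP (edgeR adjusted p = 0.0384), a call lost without non-SP 1, non-SP 2 or any 1 of the PBS libraries (adjusted p 0.0604 to 0.183). D-gel@GSNP was 1.68-fold lower than PBS (edgeR adjusted p = 0.00786), lost without D-gel@GSNP 1 (adjusted p 0.0518). Bnip3l, its close relative, changed less, from 131 ± 6.69 CPM in PBS to 210.2 ± 22 in L-gel@GSNP (SD, n = 3; 1.61-fold higher, edgeR adjusted p = 1.69e-08).

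Pdk1, the kinase that shuts pyruvate out of the citric acid cycle, was low in PBS and high in L-gel@GSNP. It stood at 53.5, 52.3 and 55.8 CPM in non-SP, 38.8, 39.7 and 41.5 in PBS, 54.5, 56.6 and 52.3 with D-gel@GSNP, 116, 94.2 and 118 in L-gel@GSNP and 55.5, 42.1 and 47.9 in D-gel@NP. The PBS libraries were below all others and the L-gel@GSNP libraries well above all others. PBS was 1.35-fold lower than non-SP (edgeR adjusted p = 0.000156), whereas L-gel@GSNP was 2.74-fold higher than PBS (edgeR adjusted p = 1.02e-11) and 2.27-fold higher than D-gel@NP (edgeR adjusted p = 3.98e-09). The difference of D-gel@NP from PBS, 1.2-fold higher (edgeR adjusted p = 0.0209), was lost without PBS 1, PBS 2 or D-gel@NP 1 (adjusted p 0.054 to 0.116). Higd1a, a small protein of the inner mitochondrial membrane, stood at 49.98, 52.9 and 50.3 CPM in non-SP, 56.1, 54.0 and 49.7 in PBS, 43.1, 55.5 and 53.5 with D-gel@GSNP, 85.5, 62.3 and 94.3 in L-gel@GSNP and 45.6, 36.0 and 39.5 in D-gel@NP. The libraries of L-gel@GSNP lay above and those of D-gel@NP below PBS, with L-gel@GSNP 2.02-fold higher than D-gel@NP (edgeR adjusted p = 2.4e-06). The fall of D-gel@NP below PBS (log2 -0.41, edgeR adjusted p = 0.0103) was lost without D-gel@NP 2 (adjusted p 0.0689).

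**Figure D3:**
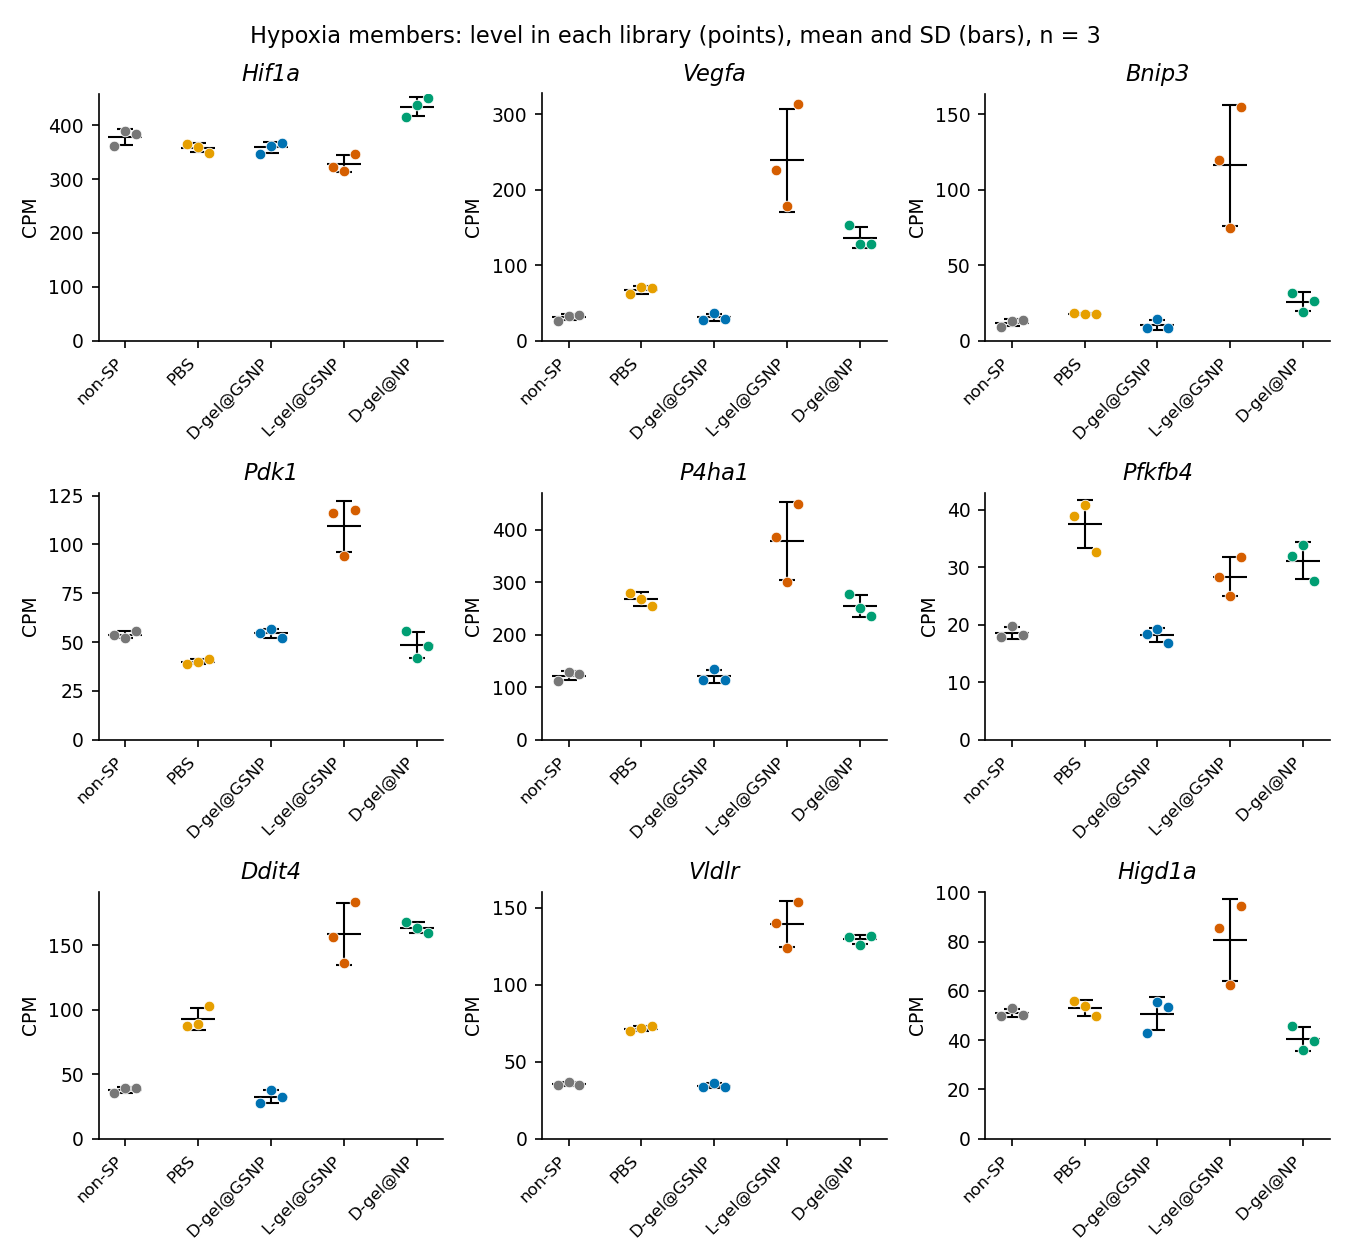
CPM of 9 hypoxia members in each library (points, coloured by group) with the mean and SD of the 3 libraries (bars); each panel has its own axis from 0. Vegfa, Bnip3, Pdk1, P4ha1 and Higd1a have all 3 L-gel@GSNP points above every other library, while in Ddit4 and Vldlr the L-gel@GSNP and D-gel@NP points overlap.

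Ankrd37, a small ankyrin repeat protein used as a hypoxia marker, was scarce outside L-gel@GSNP. It stood at 0.982, 1.95 and 0.727 CPM in non-SP, 2.204, 1.42 and 1.59 in PBS, 0.489, 0.88 and 0.551 with D-gel@GSNP, 7.16, 3.97 and 12.03 in L-gel@GSNP and 2.38, 1.72 and 2.6 in D-gel@NP. Every L-gel@GSNP library exceeded the rest, but in CPM these 3 differed among themselves by more than the libraries of any other group. L-gel@GSNP was 4.5-fold higher than PBS (edgeR adjusted p = 1.45e-05) and 3.51-fold higher than D-gel@NP (edgeR adjusted p = 0.000515), and D-gel@GSNP was 2.66-fold lower than PBS (edgeR adjusted p = 0.0042). The log2 difference from PBS was 1.68 to 2.49 when 1 library was left out. PBS and non-SP were not told apart (log2 0.52, 95% interval -0.257 to 1.29), except without non-SP 2, when the adjusted p was 0.0423.

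The genes for collagen prolyl hydroxylase, which stiffens the matrix, and for chromatin and transcription factors divided by group. P4ha1, its catalytic subunit, stood at 112, 128 and 124 CPM in non-SP, 280.2, 268 and 255 in PBS, 114, 135 and 114 with D-gel@GSNP, 386, 299.6 and 449 in L-gel@GSNP and 277, 251 and 236 in D-gel@NP. PBS and D-gel@NP overlapped, both well above non-SP and D-gel@GSNP, and L-gel@GSNP lay higher again. PBS was 2.2-fold higher than non-SP (edgeR adjusted p = 2.8e-09) and L-gel@GSNP 1.41-fold higher than PBS (edgeR adjusted p = 0.000258); the difference of D-gel@NP from PBS was -0.0743 (log2, 95% interval -0.281 to 0.133). P4ha2, a second catalytic subunit, reached 96.9 ± 27.6 CPM in L-gel@GSNP against 54.9 ± 1.34 in PBS (1.77-fold higher, edgeR adjusted p = 3.53e-05). Kdm3a, a histone H3K9 demethylase, went from 80.0 ± 3.69 CPM in non-SP to 166 ± 3.45 in PBS and 222 ± 14.6 in L-gel@GSNP. Mxi1, a MYC antagonist, ran the same way from 14.2 ± 1.44 to 23.6 ± 1.55 and 44.4 ± 7.78 CPM (SD, n = 3), and each step was called (L-gel@GSNP minus PBS: edgeR adjusted p = 6.04e-07 for Kdm3a and 1.44e-07 for Mxi1). Ndrg1, a growth regulator that stress induces, stood at 17.8 ± 1.56 CPM in non-SP, 49.9 ± 6.22 in D-gel@NP and 82.0 ± 19.7 in L-gel@GSNP (SD, n = 3). Bhlhe40, a repressor of the clock circuit, varied little, with group means from 176 to 202 CPM.

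Ddit4 and Vldlr were high in both L-gel@GSNP and D-gel@NP. Ddit4, also called REDD1, an inhibitor of the mTORC1 growth pathway, stood at 35.1, 39.1 and 39.7 CPM in non-SP, 87.4, 88.9 and 103 in PBS, 27.9, 37.5 and 32.7 with D-gel@GSNP, 156, 136 and 184 in L-gel@GSNP and 168, 164 and 159 in D-gel@NP. Vldlr, a lipoprotein receptor, stood at 34.5, 37.0 and 35.1 CPM in non-SP, 69.6, 71.7 and 72.9 in PBS, 33.5, 36.2 and 33.5 with D-gel@GSNP, 140.3, 124 and 154 in L-gel@GSNP and 131, 126 and 131 in D-gel@NP. In both genes PBS was separate from non-SP, and L-gel@GSNP and D-gel@NP overlapped above PBS. Ddit4 was 2.45-fold higher in PBS than in non-SP (edgeR adjusted p = 2.45e-10) and 1.76-fold higher in D-gel@NP than in PBS (edgeR adjusted p = 1.27e-06). L-gel@GSNP and D-gel@NP differed by -0.0409 for Ddit4 (log2, 95% interval -0.236 to 0.154) and by 0.11 for Vldlr (-0.0229 to 0.236), and neither was called; without L-gel@GSNP 2 Vldlr was (adjusted p = 0.0335).

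The bifunctional enzymes that set fructose 2,6-bisphosphate, the activator of phosphofructokinase, differed from the other members. Pfkfb4 stood at 17.8, 19.7 and 18.2 CPM in non-SP, 39.0, 40.9 and 32.8 in PBS, 18.4, 19.3 and 16.9 with D-gel@GSNP, 28.3, 25.0 and 31.9 in L-gel@GSNP and 32.0, 34.0 and 27.6 in D-gel@NP. PBS held the highest values, overlapping D-gel@NP, and was 2.02-fold higher than non-SP (edgeR adjusted p = 1.41e-08), and L-gel@GSNP was below it (1.32-fold lower, edgeR adjusted p = 0.00176). Pfkfb3 was lowest in D-gel@NP, at 22.7, 26.4 and 25.1 CPM, and between 27.1 and 39.3 CPM in all other libraries. Pfkfb4 and Hif1a were the hypoxia members called lower in L-gel@GSNP than in PBS.

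Car9, the carbonic anhydrase often used as a hypoxia marker, was near 0 in this line. It had 0, 6 and 0 counts in non-SP, 2, 0 and 0 in PBS, 2, 0 and 4 in D-gel@GSNP, 0, 4 and 2 in L-gel@GSNP and 0, 2 and 0 in D-gel@NP. No group stood apart. Car12, a second carbonic anhydrase, Plod2, which hydroxylates collagen lysines, and Adm, the peptide adrenomedullin, had at most 6, 6 and 8 counts in any library, so these 4 members could not be tested.

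In the glycolysis set, 6 enzymes from aldolase to lactate dehydrogenase had the highest levels per length. In non-SP, Ldha stood at 358 ± 7.19 FPKM, Pkm at 350 ± 3.42, Tpi1 at 344 ± 6.11, Pgk1 at 319 ± 11.1, Aldoa at 282 ± 4.44 and Eno1 at 262 ± 2.14 (SD, n = 3). The neighbours Ldha and Pkm, and Pkm and Tpi1, differed by about as much as their spread, and Pgk1, Aldoa and Eno1 came below in that order. This order depends on the gene lengths behind the FPKM, such as 5379 bases for Eno1 and 3310 for Ldha. In CPM Eno1 (1416 ± 11.6) was above Ldha (1192 ± 25) in non-SP. Hk2 and Hk1, at 39.0 ± 0.484 and 35.7 ± 0.235 FPKM, were several times lower. Slc2a3, Slc16a3 and Eno2, the neuronal enolase, were under 5 CPM in every group.

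Of the glucose transporters listed, Slc2a1 (GLUT1) was well expressed and Slc2a3 (GLUT3) scarce. Slc2a1 stood at 94.4, 96.3 and 96.0 CPM in non-SP, 89.3, 90.5 and 93.6 in PBS, 99.3, 107 and 96.4 with D-gel@GSNP, 135, 108 and 169 in L-gel@GSNP and 91.3, 83.2 and 83.1 in D-gel@NP. Outside L-gel@GSNP the libraries lay between 83.1 and 107 CPM, with those of D-gel@GSNP above those of PBS and D-gel@NP. L-gel@GSNP lay above them all, with library 3 the highest. It was 1.51-fold higher than PBS (edgeR adjusted p = 2.26e-05) and 1.61-fold higher than D-gel@NP (edgeR adjusted p = 2.58e-05); the log2 difference of D-gel@GSNP from L-gel@GSNP was -0.45, and -0.28 without L-gel@GSNP 3, still called (adjusted p = 0.00139). Slc2a3 stood at 0.336, 0.563 and 0.194 CPM in non-SP, 0.156, 0.279 and 0.0506 in PBS, 0.279, 0.3 and 0.253 with D-gel@GSNP, 0.425, 0.901 and 0.595 in L-gel@GSNP and 0.119, 0.456 and 0.375 in D-gel@NP. Its 3.87-fold difference of L-gel@GSNP over PBS (edgeR adjusted p = 0.00594) rests on 15, 40 and 60 counts against 6, 12 and 2.

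The hexokinases, which trap glucose in the cell, did not follow the transporter. Hk1 stood at 307, 305 and 306 CPM in non-SP, 245, 271 and 271 in PBS, 344, 344 and 320.3 with D-gel@GSNP, 219.7, 219.9 and 297 in L-gel@GSNP and 195, 209.6 and 191 in D-gel@NP. Hk2, the isozyme that tumours and low oxygen favour, stood at 237, 233 and 233 CPM in non-SP, 163, 184 and 204 in PBS, 237, 248 and 232 with D-gel@GSNP, 183, 172 and 205 in L-gel@GSNP and 190.3, 191 and 187 in D-gel@NP. For both genes non-SP and D-gel@GSNP were above the 3 other groups, and D-gel@GSNP was 1.69-fold higher for Hk1 and 1.26-fold higher for Hk2 than D-gel@NP (edgeR adjusted p = 3.76e-08 and 0.000141). Hk2 in L-gel@GSNP was not told apart from PBS (log2 0.024, 95% interval -0.112 to 0.16). Hk1 was not called there either (-0.0936), but without L-gel@GSNP 3, the one high library, it was -0.25 (adjusted p = 0.000925). The call for Hk1 between L-gel@GSNP and D-gel@NP was also lost without that library (log2 0.31, edgeR adjusted p = 0.00915, against 0.15 and 0.0722 without it).

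The phosphofructokinase isozymes, which commit sugar to the pathway, moved apart. Pfkp, the platelet type, stood at 39.1, 39.8 and 37.6 CPM in non-SP, 29.5, 28.6 and 28.2 in PBS, 41.1, 42.6 and 37.6 with D-gel@GSNP, 59.1, 46.9 and 64.3 in L-gel@GSNP and 38.2, 31.9 and 35.0 in D-gel@NP. PBS was below and L-gel@GSNP above all others. L-gel@GSNP was 1.98-fold higher than PBS (edgeR adjusted p = 8.74e-09) and 1.63-fold higher than D-gel@NP (edgeR adjusted p = 7.32e-06). Pfkm, the muscle type, stood at 50.8, 53.2 and 51.4 CPM in non-SP, 63.5, 60.9 and 59.8 in PBS, 57.6, 56.2 and 54.5 with D-gel@GSNP, 57.0, 56.3 and 60.2 in L-gel@GSNP and 41.02, 46.1 and 44.5 in D-gel@NP. D-gel@NP was below all others and 1.39-fold lower than PBS (edgeR adjusted p = 1.42e-06). L-gel@GSNP overlapped PBS (log2 -0.0845, 95% interval -0.199 to 0.0299). Pfkl, the liver type, was also highest in L-gel@GSNP, with 195 ± 17.9 CPM against 123 ± 3.53 in PBS (1.58-fold higher, edgeR adjusted p = 1.17e-07). Per length it was the most abundant of these isozymes in non-SP (21.7 ± 0.604 FPKM against 15.4 ± 0.35 for Pfkm and 2.88 ± 0.0861 for Pfkp, SD, n = 3). The FPKM rest on gene lengths of 6675 bases for Pfkl, 3340 for Pfkm and 13401 for Pfkp. In CPM Pfkp was much nearer to Pfkm in non-SP (means of 38.9 and 51.8).

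In the middle of the pathway, Gpi1, Aldoa, Tpi1 and Pgk1 were raised in L-gel@GSNP. Aldoa, the aldolase that splits the sugar, stood at 808, 828 and 837 CPM in non-SP, 1043, 1000 and 926 in PBS, 769, 851 and 803 with D-gel@GSNP, 1489, 1217 and 1634 in L-gel@GSNP and 972, 854 and 858 in D-gel@NP. Pgk1, which makes the first ATP, stood at 716, 747 and 697 CPM in non-SP, 636, 613 and 584 in PBS, 717, 751 and 691 with D-gel@GSNP, 1290, 973 and 1322 in L-gel@GSNP and 643, 572 and 601 in D-gel@NP. For both, the 3 L-gel@GSNP libraries were above the 12 others. L-gel@GSNP exceeded PBS in Pgk1 (1.96-fold higher, log2 0.97, SE 0.0783, edgeR adjusted p = 1.52e-09) and in Aldoa (1.46-fold higher, edgeR adjusted p = 3.48e-06), and it was also above D-gel@NP (Pgk1 1.98-fold higher and Aldoa 1.62-fold higher). PBS lay below non-SP for Pgk1 (1.18-fold lower, edgeR adjusted p = 0.0137), a call lost without non-SP 2 or PBS 3 (adjusted p 0.0549 and 0.0532), and above it for Aldoa (1.2-fold higher, edgeR adjusted p = 0.0054). Tpi1, which interconverts the triose phosphates, was at 1265 ± 125 CPM in L-gel@GSNP and 782 ± 37.4 in PBS, and Gpi1, the glucose phosphate isomerase, at 409 ± 50.4, 331 ± 4.18 and, in D-gel@NP, 262 ± 16 (SD, n = 3).

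**Figure D4:**
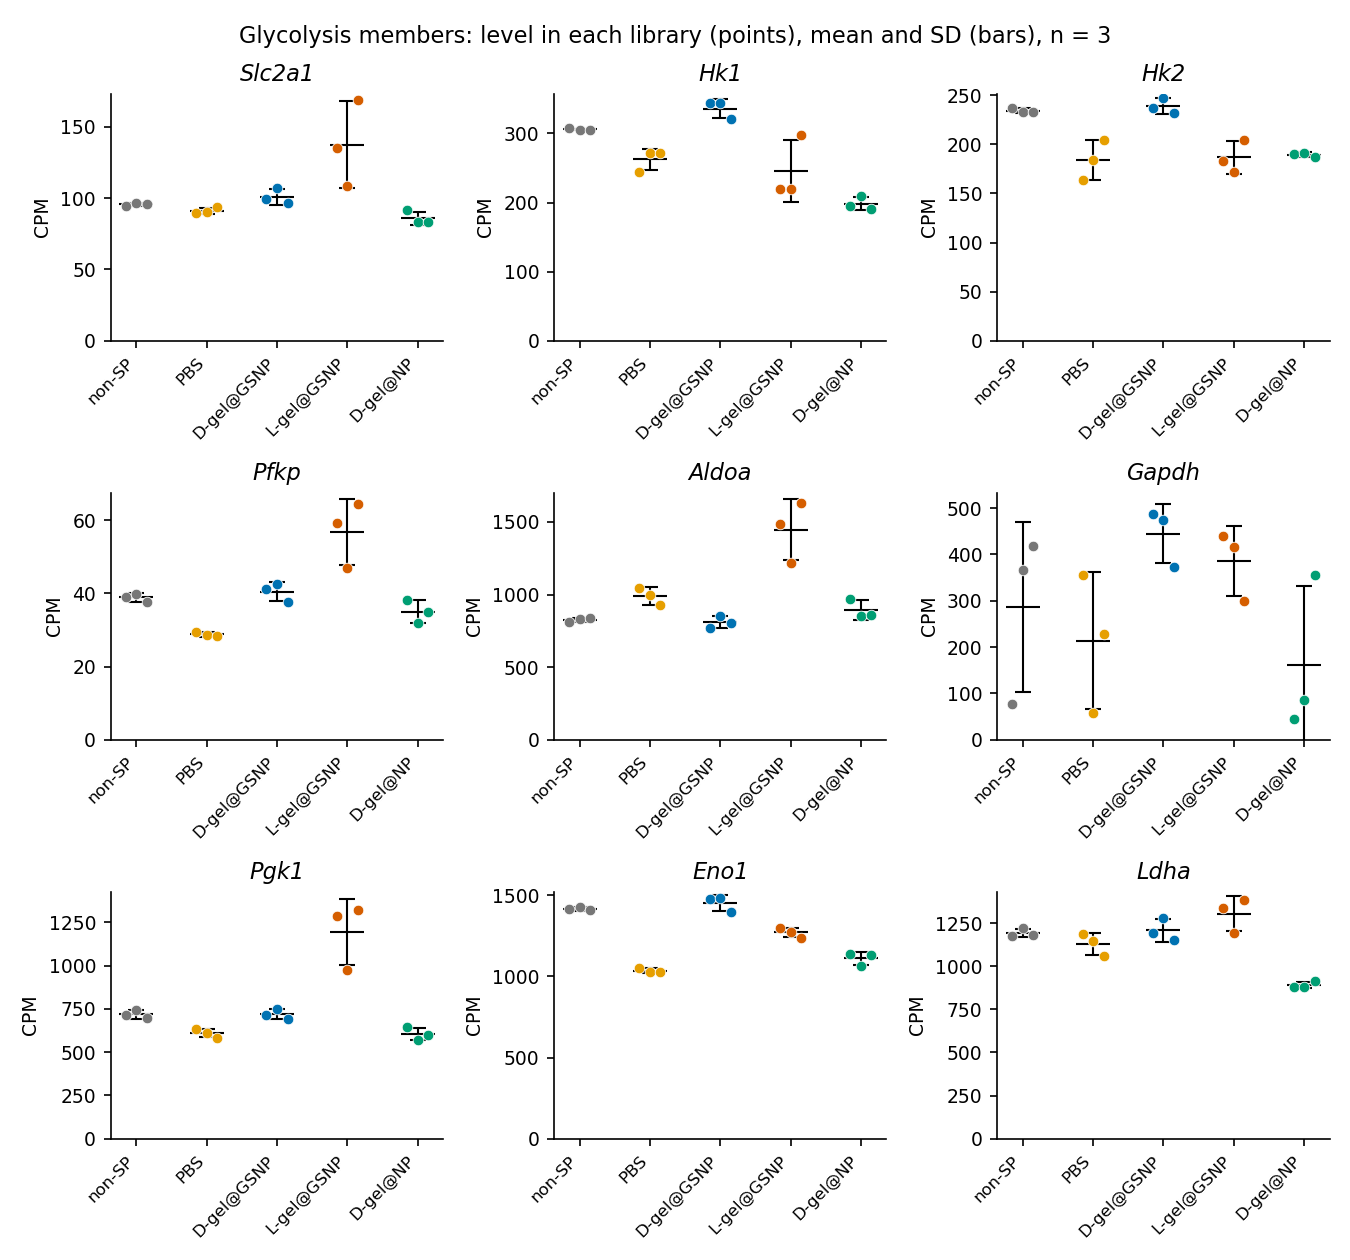
CPM of 9 glycolysis members in each library (points, coloured by group) with the mean and SD of the 3 libraries (bars); each panel has its own axis from 0. Slc2a1, Pfkp, Aldoa and Pgk1 have their highest points in L-gel@GSNP, Hk1, Hk2 and Eno1 in non-SP or D-gel@GSNP, and Gapdh scatters within non-SP, PBS and D-gel@NP.

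Gapdh, often used as a reference gene, was the least stable of the abundant members. It stood at 77.6, 367 and 417 CPM in non-SP, 355, 58.6 and 229 in PBS, 487, 475 and 372 with D-gel@GSNP, 441, 416 and 299 in L-gel@GSNP and 44.4, 86.3 and 356 in D-gel@NP. Libraries of 1 group were up to several-fold apart, and the whole range was 11-fold. The SD within groups was 1.1 on the log2 scale, against a median of 0.0888, and ranked 6 from the top among 10341 genes with at least 5 CPM. It was called only for D-gel@GSNP over D-gel@NP (log2 1.43, edgeR adjusted p = 0.0391), and not without any 1 of the D-gel@GSNP libraries, D-gel@NP 1 or D-gel@NP 2 (adjusted p 0.0502 to 0.163). Without D-gel@NP 3, the high library of that group, the log2 difference was 2.72 (adjusted p = 0.0005). Other comparisons gained a call for Gapdh in the same way: L-gel@GSNP minus D-gel@NP and D-gel@NP minus PBS without D-gel@NP 3 (adjusted p 0.00511 and 0.0357), and D-gel@GSNP minus PBS without PBS 1 (0.0386). Gapdh has many near-identical processed copies in the mouse genome, and how reads that match several places were counted is not given in the sources used here, so its values are uncertain, as may be those of Pgk1, Aldoa, Eno1, Ldha, Tpi1, Pgam1 and Pkm. Aldoa has a further ID under the same symbol, which was not used.

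At the end of the pathway Eno1 and Ldha behaved unlike each other. Eno1, the main enolase, stood at 1412, 1429 and 1407 CPM in non-SP, 1054, 1026 and 1025 in PBS, 1474, 1482 and 1395 with D-gel@GSNP, 1298, 1274 and 1238 in L-gel@GSNP and 1135, 1066 and 1133 in D-gel@NP. PBS was below all other libraries, 1.37-fold lower than non-SP (edgeR adjusted p = 4.02e-09), and L-gel@GSNP was 1.23-fold higher than PBS (edgeR adjusted p = 3.75e-06) yet below D-gel@GSNP. Ldha, which makes lactate, stood at 1177, 1221 and 1178 CPM in non-SP, 1184, 1144 and 1061 in PBS, 1193, 1277 and 1151 with D-gel@GSNP, 1339, 1192 and 1385 in L-gel@GSNP and 881, 878 and 914 in D-gel@NP. Here D-gel@NP was below every other library, 1.27-fold lower than PBS (edgeR adjusted p = 5.45e-05), and D-gel@GSNP was 1.35-fold higher than it (edgeR adjusted p = 3.64e-07). L-gel@GSNP was 1.16-fold higher than PBS (edgeR adjusted p = 0.00316). Pgam1 was highest on average in D-gel@GSNP and non-SP, at 401 ± 18.6 and 397 ± 8.37 CPM, and lowest in D-gel@NP at 247 ± 23. Pkm, the pyruvate kinase of most tissues, ranged from 1637 ± 46.2 CPM in D-gel@NP to 2090 ± 122 in L-gel@GSNP (SD, n = 3). Slc16a3, the lactate exporter MCT4 that low oxygen induces, had at most 34 counts in a library and was not called in any comparison.

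PBS against non-SP asks how the cytokine-treated Hoechst-CD133+ cells differed from untreated cells outside the side population, with population and cytokines changed together. Hypoxia members were mostly higher and glycolysis enzymes mostly lower in PBS. Of the 19 hypoxia members tested 11 were higher and 2 lower (Pdk1 and Egln1), with 6 at least 2-fold higher (Vegfa, P4ha1, Kdm3a, Pfkfb4, Ddit4 and Vldlr). Of the 18 glycolysis members 4 were higher (Pfkm, Aldoa, Eno2 and Pkm) and 8 lower (Hk1, Hk2, Pfkl, Pfkp, Tpi1, Pgk1, Pgam1 and Eno1). Of all genes 27.6% were called higher, 26.1% lower, and 9.33% at least 2-fold higher. The median log2 difference was 0.52 for the hypoxia set and -0.23 for the glycolysis set, against 0.019 over all genes. The hypoxia median is the value of Ankrd37, which was scarce and not called (edgeR adjusted p = 0.258). The medians per library, taken from log2(CPM + 0.5), were lower in PBS, at 0.376 to 0.382. Besides those for Bnip3 and Pgk1, some calls ended when 1 library was left out. They were Hk1 (without any 1 of the non-SP libraries or PBS 1, adjusted p 0.0506 to 0.11), P4ha2 (any 1 of the non-SP libraries, PBS 2 or PBS 3, 0.0629 to 0.0949), Pkm (any 1 of the non-SP libraries, PBS 1 or PBS 2, 0.0501 to 0.103) and Eno2 (non-SP 3 or PBS 2, 0.106 and 0.107). With upper-quartile factors Hk1 and Pgk1 were not called (adjusted p 0.0783 and 0.0536). The hypoxia median ran from 0.37 (without non-SP 3) to 0.62 (without non-SP 2) when 1 library was left out and was 0.34 with no filter on low counts.

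The hydrogel comparisons with PBS ask what each gel added to cytokine-treated cells, and they share the 3 PBS libraries and include the ice step. With L-gel@GSNP members of both sets rose: 15 of 19 hypoxia members were higher and 2 lower, with 6 at least 2-fold higher (Vegfa, Bnip3, Pdk1, Egln3, Ankrd37 and Ndrg1), and 11 of 18 glycolysis members were higher and the other 7 not called. Of all genes 21.5% were called higher, 24.1% lower and 5.98% at least 2-fold higher. The medians were 0.78 and 0.30 (log2) against 0.00107 over all genes, and without L-gel@GSNP 3 they were 0.63 and 0.28 with 17 and 11 members called. Eno1, Pfkl, Pfkp, Pgk1 and Tpi1 were called lower in PBS than in non-SP and higher in L-gel@GSNP than in PBS. Both comparisons use the same PBS libraries, so low PBS values alone favour this pattern. Its share over all genes was not counted. The call for Pkm was lost without PBS 3 or L-gel@GSNP 3 (adjusted p 0.171 and 0.139). Over the whole glycolysis set, those not called were Hk1, Hk2, Pfkm, Pgam1, Gapdh, Slc16a3 and Eno2.

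With D-gel@NP the members split. Of the hypoxia set 7 were higher than in PBS (Hif1a, Vegfa, Pdk1, Ndrg1, Mxi1, Ddit4 and Vldlr) and 3 lower (Pfkfb3, Pfkfb4 and Higd1a), and of the glycolysis set 1 was higher (Pfkp) and 6 lower (Hk1, Gpi1, Pfkm, Pgam1, Pkm and Ldha). Of all genes 14.2% were called higher and 16.3% lower. The medians were 0.10 and -0.19 (log2), against -0.00455. The glycolysis members that fell did so by 1.18-fold (Pkm) to 1.39-fold (Pfkm), and Vegfa, Ddit4 and Vldlr rose by 2.02-fold, 1.76-fold and 1.81-fold. The call for Pfkp (adjusted p 0.0605 to 0.0943) was lost without PBS 2, PBS 3, D-gel@NP 1 or D-gel@NP 3, and that for Pfkfb4 (0.0744 to 0.253) without PBS 1, PBS 2, D-gel@NP 1 or D-gel@NP 3. That for Pfkfb3 was lost without PBS 2, PBS 3, D-gel@NP 1 or D-gel@NP 3 (0.051 to 0.175), and with upper-quartile factors neither Pfkfb3 nor Pfkfb4 was called (0.0747 and 0.0831).

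In D-gel@GSNP most of the hypoxia members called were lower than in PBS and most of the glycolysis members called higher; this comparison uses the same PBS libraries as those above. Of the hypoxia set 3 members were higher (Pdk1, Egln1 and Pfkfb3) and 11 lower, and of the glycolysis set 8 were higher and 1 lower (Aldoa), where 27.4% and 27.5% of all genes were. The medians were -0.39 and 0.22 (log2), against -0.0234 over all genes. Ddit4 and Ankrd37 fell most, by 2.84-fold and 2.66-fold, and Pfkp and Eno1 led the rises among the glycolysis members at 1.41-fold and 1.40-fold. The calls for Bnip3 (without D-gel@GSNP 1, adjusted p 0.0518) and Pgk1 (without PBS 3 or D-gel@GSNP 2, adjusted p 0.0513 and 0.0562) were lost when single libraries were left out. So were those for Ndrg1 (without PBS 2, PBS 3 or D-gel@GSNP 3, 0.0537 to 0.164), Pfkfb3 (D-gel@GSNP 1, 0.0501), Pfkl (D-gel@GSNP 2, 0.0893) and Tpi1 (PBS 3 or D-gel@GSNP 2, 0.06 and 0.0963). With upper-quartile factors Pfkl, Tpi1 and Pgk1 were not called (0.0563, 0.146 and 0.0951).

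Against non-SP, D-gel@GSNP showed no called difference in any of the 37 members by edgeR, and 0.417% of all genes were called. At an unadjusted edgeR p under 0.05 there were 3 of the 37 members, and 1581 of 17497 genes. By DESeq2 0 members were called, with 47 genes higher and 147 lower of 16321. With no filter on low counts 1 member in each set was called, with 72 genes higher and 167 lower of 34259. The largest differences in size were those of Ankrd37 (log2 -0.90, 95% interval -1.75 to -0.0483) and Gapdh (0.63, -0.552 to 1.81). For Vegfa the interval was -0.328 to 0.295, for Pgk1 -0.162 to 0.161 and for Ldha -0.0944 to 0.131.

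D-gel@GSNP and L-gel@GSNP share the second part of their names and differ in D against L. The hypoxia members were lower in D-gel@GSNP by a wide margin: 16 of 19 were lower, 12 of them at least 2-fold, and 2 were higher (Hif1a and Pfkfb3). Of the glycolysis members 9 were lower and 4 higher (Hk1, Hk2, Pgam1 and Eno1). Of all genes 31.3% were called lower, 14.1% at least 2-fold lower, and 30.5% higher. The medians were -1.09 and -0.31 (log2), against -0.0388 over all genes. Bnip3l, Pdk1, Ndrg1, P4ha1, P4ha2, Kdm3a, Mxi1, Ddit4 and Vldlr were lower by 2.01-fold to 4.85-fold, and Vegfa, Bnip3 and Ankrd37 by 7.74-fold, 10.9-fold and 12-fold. The higher value of Hif1a (log2 0.13, edgeR adjusted p = 0.0257) was lost without D-gel@GSNP 2, D-gel@GSNP 3, L-gel@GSNP 1 or L-gel@GSNP 2 (adjusted p 0.0667 to 0.172) and turned to -0.0182 with upper-quartile factors (adjusted p = 0.761). The lower value of Slc2a3 was lost without 5 of the 6 libraries (all but L-gel@GSNP 1; adjusted p 0.0756 to 0.193), that of Egln1 without D-gel@GSNP 3 or L-gel@GSNP 3 (0.0748 and 0.245), and the higher value of Pfkfb3 without D-gel@GSNP 1, L-gel@GSNP 1 or L-gel@GSNP 3 (0.0804 to 0.169). With upper-quartile factors the higher values of Eno1 (log2 0.046 in place of 0.192), Pgam1 and Pfkfb3 were not called (adjusted p 0.351, 0.1 and 0.486).

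**Figure D5:**
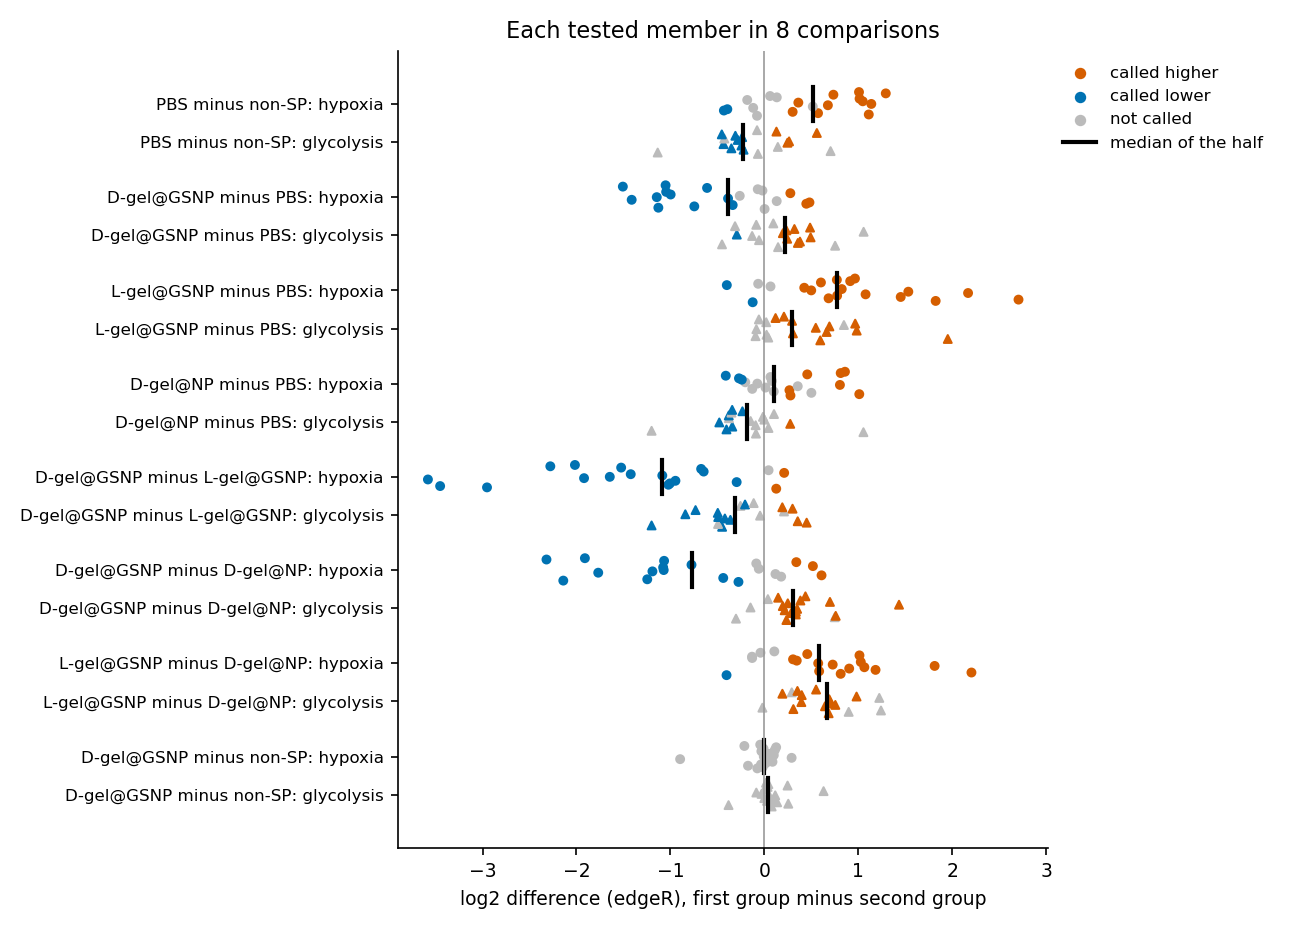
Each point is the log2 difference of 1 tested member (x axis; circles hypoxia, triangles glycolysis) in each of 8 comparisons, coloured by its call, with the median of the set as a black bar. The hypoxia bar is at 0.775 and -1.09 in L-gel@GSNP minus PBS and D-gel@GSNP minus L-gel@GSNP, and no point is called in D-gel@GSNP minus non-SP.

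D-gel@GSNP and D-gel@NP share the D gel and differ in GSNP against NP. Here the 2 sets went in opposite directions: 12 of 19 hypoxia members were lower and 3 higher in D-gel@GSNP (Egln1, Pfkfb3 and Higd1a), while 14 of 18 glycolysis members were higher and the other 4 not called. Of all genes 29.6% were called lower and 28.8% higher. At least 2-fold lower were 9 hypoxia members, and 12.1% of all genes. The medians were -0.78 and 0.31 (log2), against -0.0365. Ddit4, Vegfa and Vldlr were lower by 4.99-fold, 4.41-fold and 3.76-fold, and Hk1, Pgam1 and Ldha higher by 1.69-fold, 1.62-fold and 1.35-fold. Leaving out D-gel@NP 2 reduced the glycolysis members called to 9. Upper-quartile factors also gave 9, but not the same members, as Pkm was lost with these factors and kept without D-gel@NP 2. The calls for Slc2a1 and Pfkp were lost without D-gel@GSNP 1, D-gel@GSNP 2, D-gel@NP 2 or D-gel@NP 3 (adjusted p 0.0636 to 0.238). Others were lost without D-gel@GSNP 2, D-gel@GSNP 3, D-gel@NP 2 or D-gel@NP 3 (Higd1a, 0.0531 to 0.102), D-gel@GSNP 2, D-gel@NP 2 or D-gel@NP 3 (Tpi1, 0.0758 to 0.104), D-gel@NP 2 (Pgk1, 0.054) and D-gel@NP 1 (Pkm, 0.0758), besides Gapdh. All 7 were also lost with upper-quartile factors (adjusted p 0.0564 for Gapdh to 0.646 for Pkm).

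L-gel@GSNP and D-gel@NP differ in both parts of their names. Most members of both sets were higher in L-gel@GSNP. Of the hypoxia set 14 members were higher in L-gel@GSNP and 1 lower (Hif1a), and of the glycolysis set 13 were higher and 5 not called, where 8.33% of all genes were called higher and 11.1% lower. At least 2-fold higher were 6 hypoxia members (Bnip3, Pdk1, Egln3, Ankrd37, P4ha2 and Higd1a) and 1.21% of all genes. The medians were 0.58 and 0.67 (log2), against -0.00621 over all genes, and without L-gel@GSNP 3 they were 0.52 and 0.53 with 16 and 12 called. Ddit4, Vldlr, Pfkfb4 and Bhlhe40 were not called, nor were Hk2, Gapdh and the 3 glycolysis members under 5 CPM. Leaving out L-gel@GSNP 3 changed the value for Pgam1 from 0.398 to 0.247, still called, and the call for Pfkfb3 was lost without D-gel@NP 1 (adjusted p 0.0567); Bhlhe40 was called without L-gel@GSNP 3 (0.0164). The list was made with results of these data known, so these counts describe the members and do not test them as a set.

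Other genes of the pathway, from lists also made with results of these data known, gave a mixed picture. Their counts describe these genes and do not test the lists as sets. Beside the counts that follow, 21.5% of all genes were called higher and 24.1% lower in L-gel@GSNP than in PBS, and 8.33% and 11.1% against D-gel@NP. Of 13 oxygen sensing genes tested, 1 was higher (Arnt, the partner of HIF alpha) and 4 lower in L-gel@GSNP than in PBS. Epas1, which encodes HIF-2 alpha, was at 16.2 ± 1.95 CPM in L-gel@GSNP and 21.6 ± 2.47 in PBS, and Egln2, the third prolyl hydroxylase, at 39.7 ± 3.13 and 47.7 ± 0.766 (SD, n = 3), both lower in L-gel@GSNP (edgeR adjusted p = 0.00746 and 0.00101). Of 25 further hypoxia-induced genes tested, 15 were higher and 4 lower in L-gel@GSNP than in PBS, and 13 and 2 against D-gel@NP. Fam162a, a mitochondrial HIF target, was 2.03-fold higher than in PBS (edgeR adjusted p = 4.85e-08), whereas Stc1, the hormone stanniocalcin, fell to 32.6 ± 2.16 CPM from 106 ± 7.57 (3.26-fold lower, edgeR adjusted p = 3.21e-13). Of 20 other glycolysis isozymes and regulators 4 were higher, about the share over all genes, and 8 lower in L-gel@GSNP than in PBS. Aldoc, a second aldolase, was at 1.04 ± 0.241 CPM in non-SP, 3.54 ± 0.44 in PBS, 10.7 ± 2.44 in L-gel@GSNP and 3.54 ± 0.381 in D-gel@NP (L-gel@GSNP minus PBS: 3.03-fold higher, edgeR adjusted p = 1.58e-06).

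Summed levels of some marker lists for other cell types differed between these groups. The summed level of macrophage and microglia genes (11 of 14 listed were in the table) was 66.8 to 74.7 CPM in PBS, 38.6 to 45.3 in L-gel@GSNP, 33.1 to 40.9 in D-gel@NP, 12 to 13 in D-gel@GSNP and 11.1 to 11.3 in non-SP. Cd68 and Csf1r made up most of it, and Tyrobp was at 0 in non-SP, PBS and L-gel@GSNP. The 6 proliferation genes summed to 2630 to 2690 CPM in non-SP, 2530 to 2680 in D-gel@GSNP, 1640 to 1740 in PBS, 1420 to 1660 in L-gel@GSNP and 1530 to 1570 in D-gel@NP. The share of mitochondrially encoded counts was 2.82% to 2.92% in non-SP, 5.69% to 6.35% in PBS, 2.82% to 3.37% in D-gel@GSNP, 4.28% to 4.63% in L-gel@GSNP and 4.47% to 4.84% in D-gel@NP. The fibroblast and pericyte list, almost all of it Dcn, gave 660 to 688 CPM in non-SP, 655 to 675 in D-gel@GSNP, 1240 to 1320 in PBS, 1300 to 1460 in L-gel@GSNP and 1420 to 1490 in D-gel@NP. Col1a1 of that list went the other way, with means of 13.4 CPM in non-SP and 14.4 in D-gel@GSNP. Its means were 1.58 in PBS, 3.06 in L-gel@GSNP and 1.44 in D-gel@NP, and the remaining genes had means of at most 1.26 CPM. On all 4 of these sums and shares L-gel@GSNP and D-gel@NP overlapped. They did not on the astrocyte list (4 of 5 listed genes in the table, most of the sum from Slc1a2), which summed to 9.43 to 12 CPM in L-gel@GSNP, 19.9 to 24.1 in D-gel@NP, 23.5 to 30.5 in PBS, 1.68 to 2.27 in D-gel@GSNP and 1.73 to 2.3 in non-SP. Nor did they on the oligodendrocyte lineage list (4 of 5 genes), at 5.77 to 6.37 CPM in L-gel@GSNP, above all other groups (3.24 to 4.37 in D-gel@NP, 3.25 to 4.25 in PBS, 4.02 to 4.68 in D-gel@GSNP and 3.63 to 4.3 in non-SP), or on the neuron list, which was at most 0.934 CPM in any library (0.0892 to 0.198 in L-gel@GSNP and 0.203 to 0.275 in D-gel@NP). Endothelial genes summed to at most 1.77 CPM and T and B cell genes to at most 0.596 CPM in any library. The part of these lists in the results for the members was not tested.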

How the data were processed

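RNA of 15 libraries was sequenced in read pairs. The submitters' processing notes name fastp 0.22.0, HISAT2 2.1.0, featureCounts, DESeq2 and the build GRCm39; strand setting, treatment of multi-mapping reads and annotation release are not given in the sources used here. The authors deposited whole-number counts per gene (34259 genes) and FPKM, which equal count over length and total within a relative tolerance of 0.0001. Low counts were mostly even: 62.3% to 66.4% of those from 1 to 20. Totals spanned 5.9-fold, so low genes are least precise in the shallow libraries.

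The deposited counts were tested with edgeR 4.0.16 (quasi-likelihood, filterByExpr, TMM, all 15 libraries, 17497 genes, R 4.3.3), with Benjamini-Hochberg adjustment over all genes and a threshold of 0.05; intervals are 95%. The biological coefficient of variation was 8.06%. Counts were also simulated for all 15 libraries with 1 mean per gene (16931 genes fitted), and single genes were changed in L-gel@GSNP only. In L-gel@GSNP minus PBS 56% of 100 genes changed 1.5-fold and 75% of 100 changed 2-fold were called, besides 18 unchanged genes. In the real data far more genes differed between groups, so these rates may not hold there. Alternatives were other factors, filters, DESeq2 1.42.0, limma 3.58.1 on log2 FPKM, a replicate block and leaving out each library. Genes were matched by symbol (32434 IDs have one). Values in every library are given for a panel (Hif1a, Vegfa, Car9, Bnip3, Pdk1, Slc2a1, Hk2, Pgk1, Ldha), the 4 members of each set with the largest range, and the 2 largest rises and falls per comparison among members called with groups that do not overlap; Egln1, Egln3 and Pfkfb3 were added in part after their values were seen. Other pathway genes are named if they sense oxygen or are among the 2 largest called changes of their list. The members and lists were chosen with earlier results of these data known. Promoters are RefSeq windows on GRCm38.p6, not the authors' build.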

Additional observations from a re-analysis of the deposited data

Results flagged for a closer look

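L-gel@GSNP and D-gel@NP moved away from PBS in opposite directions for 5 members (0.234% of all genes met this rule). The rule also required a called direct difference, so that call is part of the selection. The log2 differences, L-gel@GSNP minus D-gel@NP, were -0.40 for Hif1a, 1.01 for Higd1a, 0.65 for Gpi1, 0.35 for Pkm and 0.55 for Ldha. Pkm, Gpi1, Ldha and Higd1a were above PBS in L-gel@GSNP and below it in D-gel@NP, while Hif1a was the reverse; its fall from PBS to L-gel@GSNP was lost without any 1 of 4 libraries, and the rise of Pkm without PBS 3 or L-gel@GSNP 3. All these contrasts share the 3 PBS libraries.

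D-gel@GSNP and L-gel@GSNP did so for 11 members and for 14.5% of all genes. The log2 differences, D-gel@GSNP minus L-gel@GSNP, were -2.95 for Vegfa, -3.45 for Bnip3, -1.02 for Bnip3l, -3.58 for Ankrd37, -1.92 for Ndrg1, -1.65 for P4ha1, -1.42 for Kdm3a, -1.52 for Mxi1, -2.28 for Ddit4, -2.02 for Vldlr and -0.84 for Aldoa. In each of them D-gel@GSNP was below PBS and L-gel@GSNP above it; the falls of Ndrg1 and Bnip3 below PBS were lost without single libraries.

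D-gel@GSNP and D-gel@NP did so for 8 members and for 10.1% of all genes. The log2 differences, D-gel@GSNP minus D-gel@NP, were -2.14 for Vegfa, -1.19 for Ndrg1, 0.52 for Pfkfb3, -1.07 for Mxi1, -2.32 for Ddit4, -1.91 for Vldlr, 0.76 for Hk1 and 0.70 for Pgam1. Hk1, Pgam1 and Pfkfb3 were below PBS in D-gel@NP and above it in D-gel@GSNP, and the others the reverse; the calls for Pfkfb3 against PBS and for Ndrg1 in D-gel@GSNP minus PBS were lost without single libraries. Groups of 3 libraries are too small for a test of single outlying libraries, which was not run.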

How the results depend on the processing

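Of the counts and medians of the 2 sets, 572 alternative values stayed close to those reported, and 36 moved by more than the spread between libraries or by over 1.5 times. The hypoxia median of D-gel@GSNP minus non-SP, near 0 (-0.00572), changed sign in 4 of the fits that left out 1 library (up to 0.0379). Of 296 differences of single members 181 were called. Of these, 141 kept call and direction under every alternative that tested the member, while 40 lost the call under at least 1. Not every alternative tested every member: the filter of at least 1 CPM in 3 libraries left out Slc2a3, for example. Of the 115 not called, 31 were called under at least 1 alternative, and 35 changed sign. Of those called 1 changed sign, Hif1a in D-gel@GSNP minus L-gel@GSNP, which was -0.0182 with upper-quartile factors. The hypoxia median of PBS minus non-SP (0.516) was 0.341 with no filter, 0.335 with DESeq2, 0.335 with limma on log2(FPKM + 1) and 0.275 with that and no filter, and 0.367 to 0.616 when 1 library was left out. With limma on log2(FPKM + 1) and no filter, 6 glycolysis members were called in PBS minus non-SP and 6 hypoxia members in D-gel@NP minus PBS. The glycolysis median of D-gel@GSNP minus L-gel@GSNP (-0.307) was -0.452 with upper-quartile factors and -0.146 with limma on log2(FPKM + 1), with or without a filter. For D-gel@GSNP minus D-gel@NP, the hypoxia median (-0.775) was -1.05 with no filter, -0.931 with DESeq2 and -0.328 with limma on log2(FPKM + 1) and no filter. Its glycolysis members called (14) were 9 with upper-quartile factors, 8 with limma on log2(FPKM + 1), 9 on log2(FPKM + 0.1) and 8 without a filter, and 9 to 13 when 1 library was left out; the median (0.31) was 0.189, 0.206, 0.209 and 0.206, and 0.251 to 0.332. The glycolysis median of L-gel@GSNP minus D-gel@NP (0.665) was 0.469, 0.485 and 0.469 with the 3 limma settings and 0.534 to 0.674 when 1 library was left out. With no filter 1 hypoxia and 1 glycolysis member were called in D-gel@GSNP minus non-SP, with 72 genes higher and 167 lower of 34259. Counting Pdk1, Pfkfb3 and Pfkfb4 with glycolysis moved the hypoxia median to 0.189 in D-gel@NP minus PBS, -1.47 in D-gel@GSNP minus L-gel@GSNP and -1.07 in D-gel@GSNP minus D-gel@NP. The cause was not tested.

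Upper-quartile factors moved the median of all genes by -0.145 in D-gel@GSNP minus L-gel@GSNP, to -0.184, and by -0.12 in D-gel@GSNP minus D-gel@NP, to -0.157. They moved the share of all calls that were higher from 46.5% to 57.2% in D-gel@NP minus PBS, from 47.1% to 57.1% in L-gel@GSNP minus PBS, from 49.4% to 38.1% in D-gel@GSNP minus L-gel@GSNP and from 49.3% to 38.6% in D-gel@GSNP minus D-gel@NP. In D-gel@GSNP minus non-SP, DESeq2 called 47 genes higher and 147 lower, against 73 in all by edgeR. Whether libraries with the same replicate number are paired was not tested. Of 30 same-number correlations 6 were over 0.1 (-0.21 to 0.362), and 7 of 15 libraries correlated best with their own number. With the number as a replicate block the hypoxia set of PBS minus non-SP had 13 members called and a median of 0.498, and 1 call of a member changed, Gpi1 in PBS minus non-SP, which was called (log2 0.144, adjusted p = 0.0472).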

Other observations

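The genes that carry pyruvate and lactate, next to the glycolysis enzymes, were called in both directions. Pdk4, a kinase that closes pyruvate dehydrogenase in fasting, stood at 3.75 ± 0.298 CPM in non-SP, 13.4 ± 2.87 in PBS, 4.33 ± 0.279 with D-gel@GSNP, 43.8 ± 8.78 in L-gel@GSNP and 25.0 ± 0.298 in D-gel@NP (SD, n = 3). Unlike Pdk1 it was higher in PBS than in non-SP (3.56-fold higher, edgeR adjusted p = 8.68e-10), and L-gel@GSNP was 3.26-fold higher than PBS (edgeR adjusted p = 7.75e-10). Slc16a1, the monocarboxylate transporter MCT1, fell to 107 ± 4.91 CPM in L-gel@GSNP from 176 ± 5.45 in PBS (1.65-fold lower, edgeR adjusted p = 1.49e-10). Bsg (basigin), the chaperone that brings this transporter to the membrane, rose there to 835 ± 80.3 CPM from 474 ± 6.96 (1.76-fold higher, edgeR adjusted p = 1.8e-10). Of 12 genes of pyruvate entry into mitochondria tested, 3 were higher and 6 lower in L-gel@GSNP than in PBS, where 21.5% and 24.1% of all genes were.

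Some regulators outside the HIF pathway were called as well. Mlxipl, which encodes the glucose-sensing factor ChREBP that binds E-boxes, was at 0.433 ± 0.291 CPM in non-SP, 1.12 ± 0.16 in PBS, 0.565 ± 0.211 with D-gel@GSNP, 8.10 ± 0.826 in L-gel@GSNP and 4.64 ± 0.689 in D-gel@NP (SD, n = 3), and L-gel@GSNP was 7.21-fold higher than PBS (edgeR adjusted p = 8.5e-09). Of the 8 E-box factors tested 3 were higher and 2 lower in that comparison, against the same shares of all genes. Tigar, a phosphatase that opposes phosphofructokinase activation, fell to 24.9 ± 1.31 CPM in L-gel@GSNP from 44.6 ± 2.73 in PBS (1.79-fold lower, edgeR adjusted p = 4.83e-09).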
